A study of Mus musculus with 2 samples.

Results

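Cells rich in MHC class II transcripts were picked out of lineage-depleted mouse bone marrow, 94 of 23776 kept barcodes. Kept barcodes held 1000 or more UMIs (unique molecular identifiers, the count of captured transcripts), 500 or more genes and no more than 10% UMIs from mitochondrial genes. A member had a sum of Cd74, H2-Aa, H2-Ab1 and H2-Eb1 of at least 20 UMIs per 10000 (CP10K) and at least 2 UMIs of Lgals3 and Itgax together. It had no UMI of Siglech or Cd79a, under 2 UMIs of Gata3, under 5 CP10K of C1qa, C1qb and C1qc summed and under 10 CP10K of Jchain, which keeps out plasmacytoid, B, innate lymphoid, macrophage and plasma cells. Members were thus chosen by measured levels of these genes, which are given below only as a description.

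The marrow came from C57BL/6 mice, wild type (WT) or with a conditional knockout of Nat10 (Nat10 cKO), the RNA cytidine acetyltransferase that makes N4-acetylcytidine. The labels name neither the Cre driver, the deleted exons nor the age of the mice. The series text speaks of 5 mice, but no label ties a cell to a mouse, and each genotype had 1 library. No difference below therefore has a replicate check, no test between genotypes was made, and every interval is a 95% interval for counting error only. The WT library gave 12537 kept barcodes with a median of 18600 UMIs, and the cKO library 11239 with a median of 21119. The libraries shared 67 barcodes, 0 of them a member. Members held 1212116 UMIs in the WT and 321117 UMIs in the cKO library, with medians of 14755 and 13318 UMIs per cell.

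Conventional dendritic cells (cDCs) take up antigen, cut it and show the peptides to T cells on MHC class II. They form in the marrow from Flt3-dependent precursors and fall into cDC1, which express Xcr1, Clec9a and Cadm1 and depend on Irf8 and Batf3, and cDC2, marked in mice by Sirpa and often Cd209a or Clec10a. The class II genes are switched on by Ciita, a coactivator that binds no DNA itself and is held at their promoters by factors bound to the X and Y boxes.

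The promoters of 3 class II genes are printed to show where letters of these boxes were found. Each line gives the 150 bases before the gene start, 5′ to 3′ on the gene's strand, from RefSeq on GRCm38.p6, which is not the build of the count files. Capitals mark the Y box letters ATTGG and an X box match, both searched on both strands.
H2-Aa, chr17:34287824-34287973, minus strand: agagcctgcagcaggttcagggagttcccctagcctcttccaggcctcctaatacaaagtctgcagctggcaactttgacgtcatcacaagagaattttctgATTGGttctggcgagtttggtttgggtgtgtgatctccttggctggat
H2-Eb1, chr17:34305717-34305866, plus strand: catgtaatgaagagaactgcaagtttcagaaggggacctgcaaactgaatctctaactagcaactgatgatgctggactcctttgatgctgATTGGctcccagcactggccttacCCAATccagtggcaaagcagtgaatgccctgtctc
H2-DMb1, chr17:34153041-34153190, plus strand: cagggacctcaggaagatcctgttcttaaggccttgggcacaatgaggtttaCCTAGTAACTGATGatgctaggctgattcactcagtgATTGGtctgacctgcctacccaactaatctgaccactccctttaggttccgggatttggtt
H2-Aa and H2-Eb1 encode chains of the surface class II molecules, and H2-DMb1 a chain of the H2-M complex that loads their peptides. These windows were picked because they hold the Y letters, and that of H2-DMb1 holds the X letters too. Of 8 class II genes with a window, 7 held the Y letters and 2 the X letters, and H2-DMa held neither in either of its windows. Among all 32851 promoter windows of this length, 24.5% held the Y letters and 0.390% the X letters. A match of letters is a description and does not show a bound factor.

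Nat10 itself rested on 40 UMIs in WT members (33.0 CPM, UMIs per 1000000) and 5 UMIs in cKO members (15.6 CPM). On the log2 scale the cKO to WT ratio stood at −0.96, and its interval of −2.78 to 0.26 holds 0. The 3′ tags may lie outside the deleted part, so these levels do not check the knockout. Thumpd1, which brings Nat10 to transfer RNA, had 40 and 7 UMIs and a log2 ratio of −0.52 (−2.002 to 0.58).

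Of the marker genes that the rule did not use, those of dendritic cells were found, beside markers of other cells given below. All 7 further shared dendritic markers were above 20 CPM in both libraries, led by Cst3, the cysteine protease inhibitor cystatin C. They summed to 8258 CPM in WT and 15972 CPM in cKO members. A monocyte gate took barcodes with a class II sum under 20 CP10K. There 5 of the 7 passed 20 CPM in each library, with sums of 2132 and 2148 CPM. A plasmacytoid gate had 4 (WT) and 3 (cKO) past 20 CPM, and a C1q macrophage gate 5 in each library. Of 10 cDC1 markers, 8 passed 20 CPM in WT members and 10 did in cKO members, and their summed level was 2573 and 7679 CPM. The 10 cDC2 markers summed to 269 CPM in WT and 43.6 CPM in cKO members, and in the latter Cd209a, Clec10a, Mgl2, Irf4, Clec4a4 and Itgam were at 0. Of 11 markers of mature, migratory cells only Cd83 and Relb passed 20 CPM, and the sum was 321 CPM in WT and 480 CPM in cKO members. Ccr7 had 2 UMIs, Fscn1 had 1 UMI and Ccl22 had 0 UMIs in WT members, and each had 0 UMIs in cKO members.

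Markers of other cells were near 0 for some lists and well above it for others. The macrophage, B cell, plasma cell, T/NK, eosinophil, megakaryocyte and stromal lists had 0 markers above 20 CPM in either library. Of 11 monocyte markers, 8 passed 20 CPM in WT members and 5 did in cKO members, with summed levels of 1697 and 601 CPM. The defining genes Cd14 (0 and 1 UMIs) and Fcgr1 (12 and 0 UMIs) were low, whereas Ccr2, the receptor with which monocytes and some dendritic precursors leave the marrow, stood at 557 and 271 CPM. The 11 plasmacytoid markers summed to 884 and 402 CPM and the 6 stem and multipotent progenitor markers to 191 and 196 CPM. The 8 erythroid markers summed to 774 and 716 CPM, and the 9 neutrophil markers to 706 and 262 CPM. The part of free RNA or of other cells in these levels was not tested. Called doublets were 2 of 69 WT and 1 of 25 cKO members.

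Members were a smaller share of the cKO library. They made up 69 of 12537 WT barcodes (0.550%, exact binomial interval 0.428 to 0.696%) and 25 of 11239 cKO barcodes (0.222%, 0.144 to 0.328%). The ratio of these shares was 0.404 (0.245 to 0.647). The class II step alone kept 130 WT and 149 cKO barcodes. Steps were counted one after the other as listed above, so the counts do not tell which step made the cKO number the smaller. After the Lgals3 and Itgax step 83 and 25 were left. Of the 47 WT and 124 cKO barcodes that this step removed, 23 and 92 held a UMI of the B cell gene Cd79a, and 2 in each library had at least 2 UMIs of Xcr1. Of the barcodes that passed the other steps, the one nearest below the class II minimum had 18.9 CP10K (WT) and 12.9 CP10K (cKO). The lowest members had 20.3 and 23.5 CP10K.

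Other gates drawn from the same barcodes also gave smaller cKO shares. The ratio was 0.778 (0.668 to 0.905) for the monocyte gate, 0.172 (0.0983 to 0.283) for the plasmacytoid gate and 0.120 (0.0780 to 0.177) for the C1q macrophage gate. An erythroid gate, outside the myeloid lineage, gave 0.684 (0.615 to 0.761). The interval for members lies below that for monocytes and above that for macrophages. It overlaps those for plasmacytoid cells and for the erythroid gate. The extent of lineage depletion in each preparation has no measure here, and with 1 library each it cannot be told apart from genotype.

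Class II transcripts per cell were widely spread in both libraries. The class II sum in WT members ran from 20.3 through a median of 92.6 to 330 CP10K. In cKO members it ran from 23.5 through a median of 247 to 453 CP10K. The libraries overlapped over most of this range, but at least 200 CP10K was reached by 12 of 69 WT (17.4%) and 15 of 25 cKO members (60%). These genes chose the cells, so the values describe which cells passed.

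**Figure D1:**
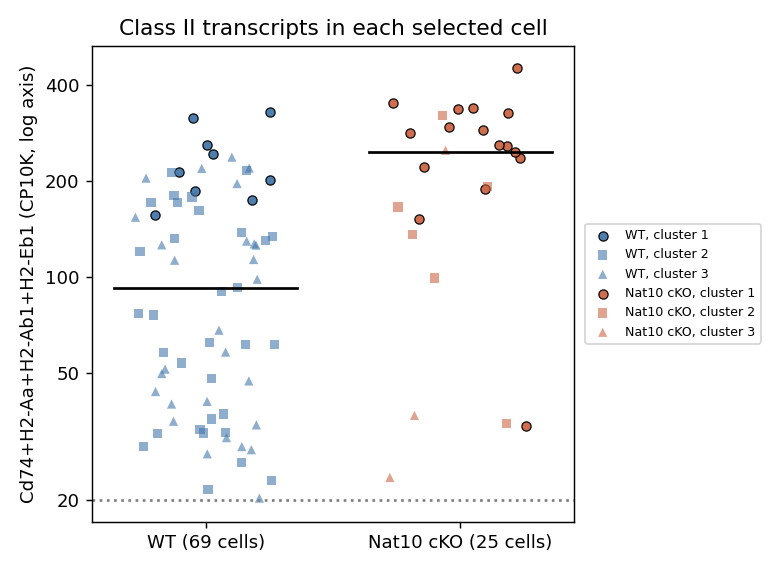
Sum of Cd74, H2-Aa, H2-Ab1 and H2-Eb1 in each selected cell (CP10K, log axis) for the WT (69 cells) and Nat10 cKO (25 cells) libraries, with the marker shape giving the cluster, a black bar the median and the dotted line the minimum of 20 CP10K. The WT median is 92.6 and the cKO median 247 CP10K, and cells of cluster 1, outlined in black, lie above 150 CP10K apart from 1 cKO cell at 34.2 CP10K.

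Clustering the 94 members gave 3 clusters. Cluster 1 held 25 cells, 9 WT and 16 cKO, with 9 of 10 cDC1 markers detected and 2 of them, Cadm1 among these, in its 10 leading genes, and is called cDC1-like. Cluster 2 held 38 cells, 32 WT and 6 cKO, was led by cell cycle and histone genes and stays unnamed. Its median depth was 18287.5 UMIs in WT and 5393 UMIs in cKO cells. Its cKO cells with 1476, 2157, 3016 and 7770 UMIs had 0 UMIs of Mki67 and Top2a. Cluster 3 held 31 cells, 28 WT and 3 cKO, with 6 of 10 cDC2 markers (Cd209a, Clec10a, Sirpa, Itgam, Clec4b1 and Cd300a) and 4 of 11 monocyte markers detected, and stays unnamed because both kinds mark it. The median class II sum was 258, 83.3 and 58.2 CP10K in clusters 1, 2 and 3. Within cluster 1 alone the medians of the libraries were 213 CP10K in 9 WT and 271 CP10K in 16 cKO cells. The clustering used these genes, so leading genes and cluster sizes are a description.

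Gates on a few genes were also drawn without clustering, and in the WT library the cDC1 gate was wider than cluster 1 with its 9 WT cells. The cDC1 gate (at least 3 UMIs of Xcr1, Clec9a and Cadm1 together) held 30 of 69 WT members (43.5%, 31.6 to 56.0%) and 17 of 25 cKO members (68%, 46.5 to 85.1%), with overlapping intervals. Every cell was also thinned to 2000 UMIs to set depth equal, which left out 1 cKO member. The cDC1 share was then 5 of 69 WT (7.25%, 2.39 to 16.1%) and 16 of 24 cKO members (66.7%, 44.7 to 84.4%). The gap between the libraries was thus wider after thinning, where 3 UMIs ask for a higher level per cell than they do in whole cells. In erythroid-gate barcodes, which should lack these genes, the unthinned share was 0.768% of WT (median depth 25133 UMIs) and 0.358% of cKO barcodes (21107 UMIs).

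Of the genes of this gate Clec9a was found in the most WT members. It had a UMI in 54 of 69 WT and 19 of 25 cKO members, whereas Xcr1 had one in 16 and 16, and Cadm1 in 15 and 20. A narrower gate of at least 3 UMIs of Xcr1 and Cadm1 was therefore added after these values were seen, and it widens the difference between the libraries. It held 13 of 69 WT (18.8%, 10.4 to 30.1%) and 16 of 25 cKO members (64%, 42.5 to 82.0%). As a share of kept barcodes these Xcr1/Cadm1-high members stood at 0.104% (WT) and 0.142% (cKO), and the ratio of 1.37 (0.619 to 3.103) has an interval that holds 1. Over all kept barcodes, members or not, the same gate held 106 WT and 54 cKO barcodes, a ratio of 0.568 (0.402 to 0.796), and 103 and 54 barcodes passed on Cadm1 alone. The other members were 56 WT and 9 cKO cells, 0.447% and 0.0801% of kept barcodes, a ratio of 0.179 (0.0780 to 0.365). The 2 intervals do not overlap, but the gate was chosen with these values known. With the planned cDC1 gate the ratio of shares of kept barcodes was 0.632 (0.327 to 1.18).

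The cDC2 and monocyte-gene gates held smaller shares of cKO members before thinning. The cDC2 gate (Cd209a, Clec10a and Mgl2) held 12 of 69 WT members (17.4%, 9.32 to 28.4%) and 0 of 25 cKO members, where a count of 0 allows up to 12%. After thinning it held 3 of 69 WT (4.35%, 0.906 to 12.2%) and 0 of 24 cKO members (up to 12.5%), so no difference was detectable at that depth. A gate on the monocyte genes Ly6c2, Ccr2 and F13a1 (at least 10 UMIs) held 62.3% of WT (49.8 to 73.7%) and 16% of cKO members (4.54 to 36.1%). After thinning it held 1 of 69 WT and 0 of 24 cKO members, but 10 UMIs of 2000 is far above the level of these genes, so the thinned gate says nothing on a difference. Scaled to all UMIs, the log2 ratio was −2.08 (−3.23 to −1.23) for Ly6c2, −1.03 (−1.38 to −0.72) for Ccr2 and −3.52 (−5.57 to −2.30) for F13a1. All 12 WT cells of the cDC2 gate were also in the monocyte-gene gate, as were 16 of 30 WT and 2 of 17 cKO cells of the cDC1 gate. The mature gate (Ccr7, Fscn1 and Ccl22) held 0 of 69 and 0 of 25 members, which allows up to 4.35% and 12%.

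**Figure D2:**
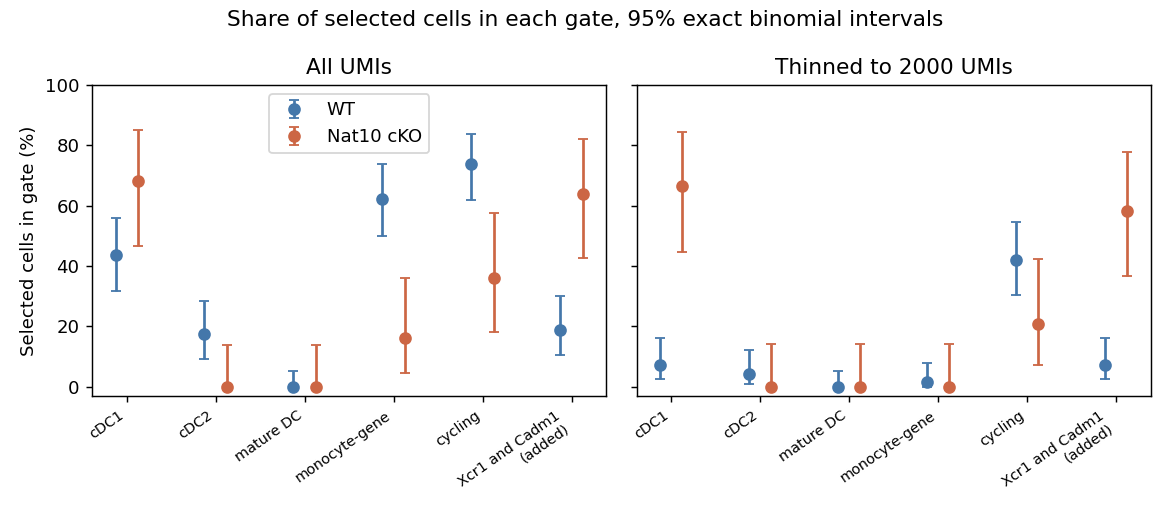
Share of the selected cells (%) in each gate for the WT and Nat10 cKO libraries, with all UMIs on the left and every cell thinned to 2000 UMIs on the right; points are shares and bars exact 95% binomial intervals, and the rightmost gate was added after the data were seen. The cDC1 share is 43.5% before and 7.25% after thinning in the WT library, and 68 and 66.7% in the cKO library, while the monocyte-gene gate, whose minimum thinned cells can hardly reach, is near empty in both after thinning.

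Between the libraries, 5282 genes with at least 50 UMIs in the members of both together were compared. Of these 214 (4.05%) were at least 2-fold higher and 539 (10.2%) at least 2-fold lower in cKO members, and 64.0% were lower by any amount, with a median log2 ratio of −0.20. The share lower by any amount was 56.7% when scaled by TMM and 58.5% by median of ratios. The mix of subsets differs between the libraries, so these ratios reflect both which cells were present and what each cell held, and the 2 cannot be told apart in the sums. Values within the Xcr1/Cadm1-high members (13 WT and 16 cKO cells) and the other members (56 and 9 cells) are therefore set beside them. All 16 cKO cells of the Xcr1/Cadm1-high class were in cluster 1, against 9 of the 13 WT cells. The remaining WT cells, 3 in cluster 2 and 1 in cluster 3, had 3 to 6 UMIs of these genes, near the minimum, so ratios within the class compare cells of partly different clusters. In these subsets 54.9% of 1903 and 55.0% of 4181 genes were lower in cKO cells by any amount.

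Genes of class II regulation and peptide loading were higher in cKO members. Of 11 measured genes of this list 10 were higher and 6 at least 2-fold, against the 4.05% of all genes, with a median log2 ratio of 1.06. WT members held 188 CPM of Ciita and cKO members 710 CPM, so the log2 ratio was 1.92 (1.65 to 2.19). H2-DMb2 stood at 1.65 (0.80 to 2.47), H2-DMa at 0.62 (0.36 to 0.87) and H2-DMb1 at 0.69 (0.40 to 0.97). Ifi30, a lysosomal thiol reductase, was lowest at −0.49 (−0.83 to −0.17), and Ctss, the protease that trims the invariant chain Cd74, stood at 0.07 (−0.27 to 0.39). The list median was 0.62 in the Xcr1/Cadm1-high members, where Ciita stood at 1.31 (0.95 to 1.69), and 0.40 in the other members, where Ciita stood at 0.73 (−0.08 to 1.39). Within cluster 1 alone Ciita stood at 405 CPM (315 to 511) in 9 WT and 866 CPM (753 to 992) in 16 cKO cells. In the monocyte gate the Ciita ratio was −2.24 (−3.85 to −1.11), on 47 and 6 UMIs.

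Across cells, several genes went with the class II sum, on which the members were selected, as a description over cells that share a library. Spearman's rho over 69 WT and 25 cKO members was 0.57 and 0.27 for Cadm1, 0.50 and 0.49 for Xcr1, 0.50 and 0.64 for Cst3 and 0.52 and 0.27 for Ciita. It was −0.58 and −0.46 for Runx2. For total UMIs it was 0.12 and 0.27, so in the cKO library Ciita and Cadm1 went with the sum no more than depth did.

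Genes of cDC1 were higher in cKO members, with smaller ratios within the Xcr1/Cadm1-high cells. Naaa, an acid amidase, had a log2 ratio of 1.67 (1.44 to 1.90) in all members and 0.48 (0.20 to 0.76) in the Xcr1/Cadm1-high ones. Ppt1, a lysosomal thioesterase, stood at 1.94 (1.73 to 2.16) and 0.51 (0.28 to 0.74). Tlr3, the sensor of double-stranded RNA, stood at 1.78 (1.37 to 2.18) and 0.92 (0.42 to 1.45). Wdfy4, needed by cDC1 to cross-present antigen, stood at 0.93 (0.81 to 1.04) and 0.26 (0.11 to 0.41). Flt3, the cytokine receptor on which cDCs depend, stood at 1.21 (0.91 to 1.497) and 0.60 (0.21 to 0.99), and Zbtb46, a factor of the cDC lineage, at 0.96 (0.57 to 1.34) and 0.58 (0.07 to 1.11). Regulators of cDC1 had ratios nearer to 0: Irf8 stood at 0.26 (0.10 to 0.41) and Batf3 at 0.06 (−0.46 to 0.53) in all members.

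The measured genes of the list of dendritic and myeloid transcription factors were split between the directions, 9 of 18 higher and 9 lower in cKO members, with a median of 0.01. Those with higher ratios included Spi1, a factor of all myeloid cells, at 0.32 (0.0004 to 0.63), and Bcl6 stood at 0.10 (−0.34 to 0.51). Tcf4, the main factor of plasmacytoid cells, had 300 WT and 18 cKO UMIs and a log2 ratio of −2.11 (−2.92 to −1.46). Zeb2 stood at −1.88 (−2.47 to −1.39), Bcl11a at −1.36 (−1.86 to −0.92), and Klf4 at −1.55 (−2.20 to −1.002). Runx2, a plasmacytoid marker outside the list, stood at −2.64 (−3.38 to −2.05). Ccr9, another plasmacytoid marker, stood in the other direction at 2.29 (1.70 to 2.91). Within the Xcr1/Cadm1-high members Tcf4 stood at −1.88 (−3.55 to −0.64), on 24 and 6 UMIs, and Runx2 at −3.09 (−5.64 to −1.60), on 30 and 3 UMIs. Within cluster 1 alone Runx2 stood at 121 CPM (75.1 to 186) in WT and 12.4 CPM (2.56 to 36.3) in cKO cells. In the other members Tcf4 stood at −0.87 (−1.90 to −0.10) and Runx2 at −1.09 (−1.90 to −0.45). Ccr2 stood at −0.08 (−0.56 to 0.34) in the other members.

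Cycling genes were lower in the summed cKO members, but not within every subset. All 31 measured genes of G2 and mitosis were lower, 16 of them at least 2-fold (10.2% of all genes), with a median of −1.11. All 21 S phase genes were lower, with a median of −0.76. Of all genes 64.0% were lower. Mki67 stood at 727 and 268 CPM, a log2 ratio of −1.43 (−1.78 to −1.12). At least 2 UMIs of Mki67 and Top2a were held by 51 of 69 WT (73.9%, 61.9 to 83.7%) and 9 of 25 cKO members (36%, 17.97 to 57.5%). After thinning the shares were 42.0% (30.2 to 54.5%) and 20.8% (7.13 to 42.2%), and the intervals overlapped. In the other members, where 55.0% of all genes were lower, the G2 and mitosis median was −0.05, with 15 of 31 genes higher. The S phase median there was −1.30. Of the 9 cKO cells of this subset, the 2 deepest (21189 and 18754 UMIs) held 13 and 18 UMIs of Mki67. The rest held at most 2 UMIs each, so the summed cKO values of this subset lean on 2 cells. In the Xcr1/Cadm1-high members, whose WT cells include 3 of the cycling cluster, 6 of 6 measured G2 and mitosis genes were lower. Their median was −0.62, and 54.9% of all genes were lower in these members. Within cluster 1 alone Mki67 went the other way, at 98.2 CPM (57.2 to 157.3) in 9 WT and 211 CPM (157.3 to 278) in 16 cKO cells. Of the 51 cKO UMIs behind this value, 31 came from 1 cell and 12 from another, so the higher level leans on these cells.

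Interferon response genes were lower in cKO members as well. Of 15 measured genes 14 were lower, against 64.0% of all genes, and 7 at least 2-fold, against 10.2%, with a median of −0.95. The direction was not particular to members. Over all kept barcodes 39 of 40 were lower, beside 13119 of 21476 genes, with a median of −0.58. In the monocyte gate 29 of 34 were lower, beside 6761 of 11776 genes, with a median of −0.42. In the plasmacytoid gate 9 of 14 were lower, beside 3777 of 7415 genes, with a median of −0.23. Ifitm3, which blocks virus entry, had 695 WT and 43 cKO UMIs and a log2 ratio of −2.08 (−2.58 to −1.65), with −0.14 (−0.91 to 0.60) in the Xcr1/Cadm1-high members. Ifit2 had 73 WT and 0 cKO UMIs, but 68 of the WT UMIs came from 2 cells. The list median was −1.503 over 8 genes in the Xcr1/Cadm1-high and −0.22 over 12 genes in the other members. Ifit2 was the lowest of the 8 genes in the Xcr1/Cadm1-high members. How far that median leans on the 2 WT cells rich in Ifit2 was not tested.

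Among receptors for chemokines, 5 were measured, with a median of −1.03. Of these 2 were at least 2-fold higher and 3 at least 2-fold lower, beside 4.05% and 10.2% of all genes. Xcr1 and Ccr2 are also genes of the cDC1 and monocyte-gene gates. Xcr1 and Ccr9 were higher, and Ccr2, Gpr183 at −1.70 (−2.39 to −1.12) and Cx3cr1 at −3.39 (−9.29 to −1.43), on 59 and 1 UMIs, were lower. Costimulation and inhibition genes had a median of 0.65 over 5, with Havcr2 highest, Slamf7 at 0.78 (0.41 to 1.14), and Cd86 at −0.06 (−0.41 to 0.27). Class I presentation genes had a median of 0.24, with 13 of 17 higher, where 64.0% of all genes were lower, and H2-Q7 and Nlrc5 at the top. Their median was 0.006 in the Xcr1/Cadm1-high members, with 7 of 12 higher, and 0.29 in the other members, with 13 of 14 higher. The median was −0.44 for motility and actin genes, with 22 of 29 lower beside that 64.0%, −0.37 for immediate early and heat shock genes, −0.41 for ac4C and ribosome biogenesis genes and −0.26 for oxidative phosphorylation. The last 3 stood at −0.49, −0.19 and −0.18 in the Xcr1/Cadm1-high members, and motility and actin at −0.42, beside −0.05 over all their genes. In the other members the last 3 stood at −0.23, −0.18 and 0.16, and motility and actin at 0.16, beside −0.07. Over all kept barcodes the last 3 stood at −0.39, 0.24 and 0.25, and motility and actin at −0.42, beside −0.10. The lower medians of ac4C and ribosome biogenesis and of oxidative phosphorylation in members thus did not hold over all kept barcodes.

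**Figure D3:**
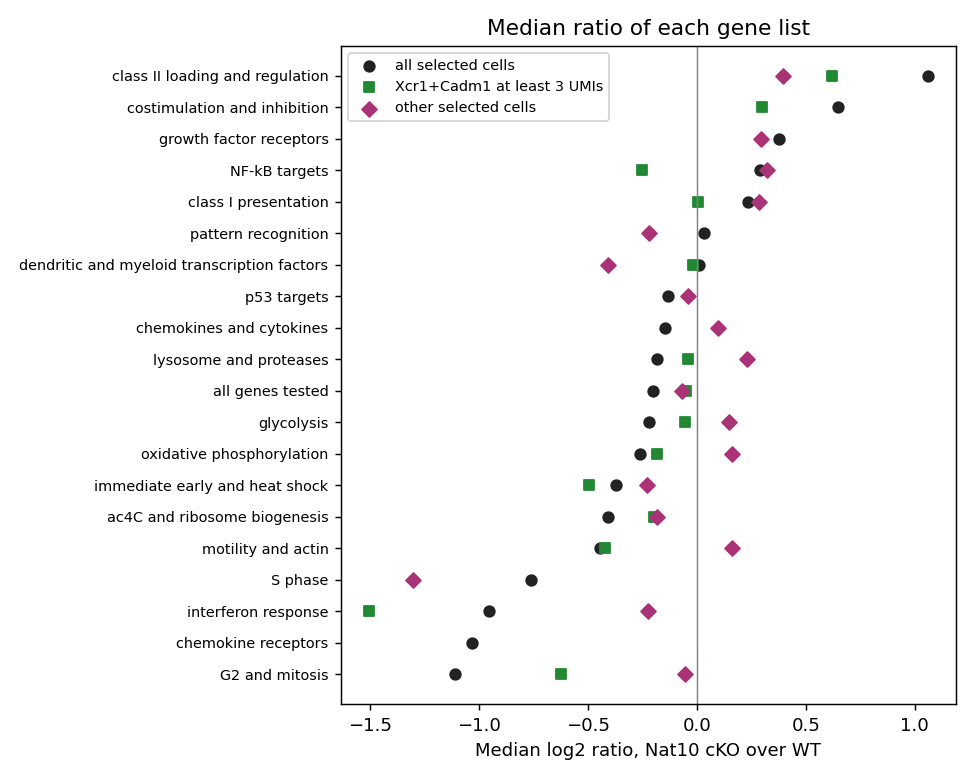
Median log2 ratio of Nat10 cKO over WT for each gene list with at least 5 measured genes, in all selected cells (circles), cells with at least 3 UMIs of Xcr1 and Cadm1 (squares) and the other selected cells (diamonds). Class II loading is highest in all selected cells at 1.06, and G2 and mitosis moves from −1.11 in all selected cells to −0.05 in the other cells.

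In the ranking of 3075 genes, the 10 highest held the cDC1 markers Cadm1 and Xcr1. The 10 lowest held the cDC2 marker Cd209a, the monocyte marker F13a1 and the plasmacytoid marker Runx2. The other genes at both ends were on none of the cell type marker lists. After Apoe, the highest were Plpp1 at 3.45 (2.92 to 4.03), the fatty acid receptor gene Cd36 at 3.25 (2.71 to 3.83), Cadm1 at 3.13, P3h2 at 3.05, Adam22 at 2.93, Xcr1, a chemokine receptor, at 2.61, Entpd1 at 2.54, Nlrp1b at 2.47 and Havcr2 at 2.39. Apoe had the highest ratio, 4.45, but 84 of its 89 cKO UMIs came from 1 cell, and without that cell it stood at 0.45 (−1.46 to 1.89). Cd209a, a C-type lectin of cDC2 and monocyte-derived cells, had 100 WT UMIs in 15 cells and 0 cKO UMIs, at least 8.83-fold lower against a floor of 3 UMIs over the cKO members. The next lowest were Gria3 at −3.62, F13a1 at −3.52, Mthfd1l at −3.06, Anln at −2.93, Atrnl1 at −2.89, Vps37b at −2.65, Runx2 at −2.64, Mef2c at −2.64 and Car1 at −2.59. Of the 306 WT UMIs of Car1, 168 came from 1 cell, and without it the ratio was −1.54 (−2.53 to −0.77).

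Within the Xcr1/Cadm1-high members, 49 of 1903 genes (2.57%) were at least 2-fold higher and 82 (4.31%) at least 2-fold lower. Mef2c, a transcription factor, was lowest with 167 WT and 15 cKO UMIs, a log2 ratio of −3.40 (−4.31 to −2.68). Plac8 stood at −2.30 (−3.15 to −1.60), Anxa1 at −2.02, Rgs2 at −1.74 and Sp100 at −1.55. Plpp1 was highest at 1.94 (1.36 to 2.60), then Bcas3 at 1.74, Cd36 at 1.47 (0.91 to 2.07), Eps8 at 1.37 and Chn2 at 1.33. Cd36 had UMIs in 7 of 13 WT and 16 of 16 cKO cells.

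Among the other members, with 9 cKO cells, 158 of 4181 genes (3.78%) were at least 2-fold higher and 488 (11.7%) at least 2-fold lower. Ftl1, the ferritin light chain, was highest after Apoe at 1.57 (1.33 to 1.81), with Ubtf at 1.52 and Cnih4 at 1.25 also among the highest. Apoe stood at 6.17, again through 1 cell, and at 1.17 (−2.28 to 3.02) without it. Rad51b, a recombination repair gene, had 276 WT UMIs in 37 cells and 0 cKO UMIs, at least 7.60-fold lower. Cacna1e (131 and 0 UMIs, at least 3.61-fold), Atg4a (109 and 0, at least 3.00-fold) and Cd209a (100 and 0, at least 2.75-fold) followed, and F13a1 had 190 and 1 UMIs.

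**Figure D4:**
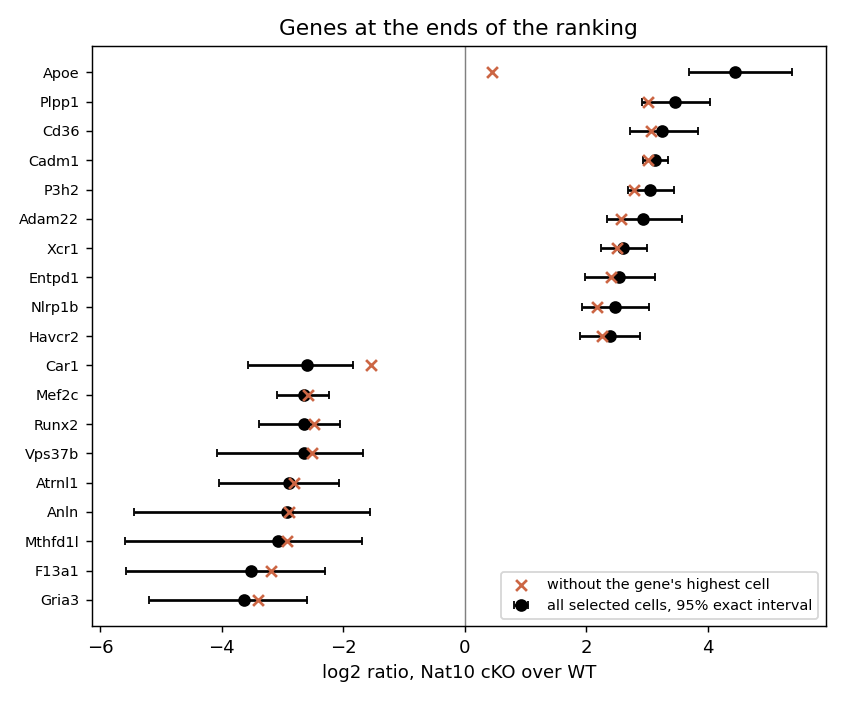
Log2 ratio of Nat10 cKO over WT in the selected cells for the genes at each end of the ranking (points, with exact 95% intervals for counting error), and the ratio without the cell that holds most of the gene's UMIs in the higher library (crosses). Cd209a, with 0 cKO UMIs, is not drawn, and Apoe moves from 4.45 to 0.45 when 1 cell is left out.

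Set against the monocyte gate, the summed UMIs of members were richest in cDC1 genes, which in the WT library came from few cells. Cluster 1, 9 of 69 WT members, held 85 of 97 Xcr1 and 277 of 292 Cadm1 UMIs, and Xcr1 stood at 13.6 and 6.59 CPM in WT cells of clusters 2 and 3. The genes with the largest fold over monocytes in the library where that fold was smaller were Xcr1, Adam23, Htr7, Tlr3, Dnase1l3, Gpr141b, Bcl2a1d, Cadm1, Hepacam2 and Rasgrp3. Xcr1 stood at 80.0 CPM in WT members on 97 UMIs, against 1 UMI in the WT monocyte gate, and at 489 CPM in cKO members against 2 UMIs. Tlr3 stood at 89.1 CPM in WT and 305 CPM in cKO members, against 4 and 5 UMIs in the monocyte gates.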

How the data were processed

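The count values are UMIs per gene and barcode, deposited by the authors as 1 matrix per library with 56748 genes. Per the submitters' processing notes they were made with Cell Ranger 7.1.0 on mm39, from 10x 3′ libraries per the labels' protocols; the cell calling is not described there. Member UMIs were summed per library, scaled to CPM, and compared as log2 ratios after adding 0.5 to each sum, for genes with at least 50 UMIs. Intervals are exact binomial for shares and exact conditional binomial for ratios. Doublets were called with Scrublet in scanpy 1.11.5 and kept, with their removal as an alternative. Members were clustered on 1500 variable genes, 20 components and 15 neighbours with Leiden at resolution 0.8 (igraph 0.11.9). The ratio code was checked on simulated counts. Ranked genes are the 10 highest and 10 lowest ratios of the genes averaging 30 CPM or more with 100 or more UMIs, apart from the rule's genes, gene models without names, and mitochondrial, globin, antigen receptor and sex-linked genes; 5 per end were taken in the subsets. The text also names genes of the rule, marker genes, the ends of each list, genes with a set role and the 10 genes with the largest fold over the monocyte gate. Some genes that this rule names are not reported here. The members and the gene lists were chosen with earlier results of these data known. The Xcr1 and Cadm1 gate, the values within its cells, other clustering resolutions and leaving out a gene's highest cell were added after seeing the data.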

Additional observations from a re-analysis of the deposited data

Results flagged for a closer look

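For 6 genes of the lists the log2 ratio of cKO over WT had opposite signs in the Xcr1/Cadm1-high and the other members, with both counting intervals clear of 0; the difference itself was not tested, and the split was chosen after seeing the data. Runx1 stood at 0.50 and −0.54, and Rbpj, the nuclear effector of Notch, at 0.40 and −0.84. The actin-binding gene Tmsb10 stood at −0.69 and 0.35, Vim at −0.56 and 0.35, Anxa2 at −1.15 and 0.54 and Gapdh at −0.59 and 0.47. The other members hold 9 cKO cells.

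Among barcodes left out by the quality filter, 1 of 2240 cKO barcodes (0.0446%, 0.00113 to 0.248%) and 1 of 3311 WT barcodes (0.0302%, 0.000765 to 0.168%) passed the rest of the rule. The cKO value lies above the WT value, with intervals that overlap almost wholly.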

How the results depend on the processing

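The share ratio of members stayed below 1 under all 9 alternatives, between 0.218, with every barcode thinned to 2000 UMIs before the rule (42 WT and 9 cKO members), and 0.509, at a class II minimum of 50 CP10K. Thinning moved the WT gate shares to 7.25% (cDC1), 4.35% (cDC2), 1.45% (monocyte-gene, a minimum thinned cells can hardly reach) and 42.0% (cycling), and the cKO monocyte-gene share to 0%. Doubling a gate's minimum gave WT shares of 27.5% (cDC1), 26.1% (monocyte-gene) and 58.0% (cycling) and a cKO monocyte-gene share of 0%; the added Xcr1 and Cadm1 gate gave 18.8% in the WT library. With no floor beyond 1 UMI, 2701 genes were at least 2-fold higher and 2087 lower; with a floor of 200 UMIs, 54 and 112 were. Scaling by TMM has an offset of −0.11 and by median of ratios one of −0.08. With every cell weighted alike, 16 of 19 list medians and 59 named genes moved by more than their counting error, and 9 list medians did under TMM. Class II loading then stood at 0.87 and G2 and mitosis at −1.24, while growth factor receptors stood at 0.0111, and medians near 0 changed sign (transcription factors −0.16, pattern recognition −0.15, p53 targets 0.0505, chemokines 0.0507). Lysosome and protease genes gave 0.0719 at the 200 UMI floor and NF-kB targets −0.0096 without a floor. Actb turned to 0.0419 under TMM and 0.0189 under median of ratios, and Ccl3 to −0.0474 without called doublets. With every cell weighted alike, Ccl4 became 0.0507, Psap −0.0611, Nop56 0.28, Npm1 0.19 and Car2 0.15. Clustering at resolutions 0.4 and 1.2 kept 25 cells in the cluster richest in Xcr1 and Cadm1. No paired analysis was possible because each genotype has 1 library. The other-member values rest on 9 cKO cells.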
